A study of Mus musculus with 503 samples.

Results

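This report follows 8 genes of the complement system through perivascular cells of the mouse spinal cord: the proteases *C1ra* and *C1s1*, the components *C4b*, *C3*, *Cfb* and *C7*, and the regulators *Serping1* and *Cd55*. They were chosen by symbol and are 8 of 56701 gene rows in the deposited counts. Cells came from adult mice, female by their labels, that carry GLAST-CreERT2 (a tamoxifen-inducible Cre driven by the gene of a glutamate transporter, *Slc1a3*), the Cre reporter R26R-tdTomato, and Pdgfrb-eGFP, which marks the mural cells of vessels (pericytes and vascular smooth muscle cells, vSMCs) and the fibroblasts beside them. All 4 groups share these 3 transgenes and tamoxifen. They are tdTomato+EGFP+ and tdTomato-EGFP+ cells (tdT+ and tdT- below) that were sorted from uninjured cord or from cord crushed completely 3 days earlier (SCI, spinal cord injury). The label tdT+ marks cells in which Cre had acted, so cells of the same kind in which it had not acted fall into tdT-. The outer meninges were removed before dissociation. Single cells were sorted into plates for Smart-seq3, which reads whole transcripts. The labels of the cells give 3 days, the series description 5, and the labels were followed.

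Complement is a cascade of blood and tissue proteins that marks cells and debris for uptake and can open pores in membranes. In the classical pathway C1r activates C1s, which cleaves C4 and C2; in the alternative pathway factor B (*Cfb*) joins C3b to form the enzyme that cleaves more C3. C7 belongs to the membrane attack complex. C1 inhibitor (*Serping1*) blocks C1r and C1s, and decay-accelerating factor (*Cd55*) takes apart the enzymes that cleave C3. The liver makes most plasma complement, and fibroblasts, glia and macrophages make some of it locally.

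Counts of 503 labelled cells were read, of which 468 passed the cell filters. Plates 209 and 213 gave 65 and 72 uninjured tdT+ cells and 46 and 60 uninjured tdT- cells, and plates 211 and 215 gave 88 and 34 injured tdT+ cells and 58 and 45 injured tdT- cells. The groups held 25645409 to 38406035 counts, and the median cell of a group 204006 to 271660. No label names an animal, so each group is 1 sample: values below are the counts of all cells in a group, added up and given as CPM (counts in a total scaled to 1000000), with exact 95% Poisson intervals that cover counting error only, and no test was made. Uninjured cells lie on plates 209 and 213 and injured cells on plates 211 and 215, so injury and plate cannot be told apart, while both sorts lie on every plate. Plate 211 held 94.6% of the counts of injured tdT+ cells, whose 34 cells on plate 215 had a median of 14770 counts. All 8 genes had counts on plate 211, from 110 for *C7* to 23736 for *Serping1*. *Pdgfrb* had 1213 to 2491 CPM in the 4 groups, and *Slc1a3* had 212 and 207 CPM in tdT+ against 31.5 and 10.7 CPM in tdT- cells. Cells that also carry endothelial transcripts were common: the 5 endothelial markers *Pecam1*, *Cldn5*, *Flt1*, *Cdh5* and *Kdr* summed to 3635 and 3947 CPM in uninjured tdT+ and tdT- cells and to 345 and 1423 CPM after injury. The 8 microglia and macrophage markers (*Ptprc*, *Aif1*, *Csf1r*, *Cx3cr1*, *Tyrobp*, *C1qa*, *C1qb* and *C1qc*) summed to 80.4, 26.9, 13.3 and 25.8 CPM in uninjured tdT+, uninjured tdT-, injured tdT+ and injured tdT- cells. Cells with a count of 3 or more of these markers made up 12.4%, 37.7%, 1.64% and 19.4% in the same order. None of the endothelial or microglia markers was at 0 in any group, and their part in the results below was not tested.

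Positions are those of the mm10 genome (GRCm38, GENCODE M21). *C1ra* (chromosome 6, 124512405 to 124523443, plus strand) and *C1s1* (chromosome 6, 124530345 to 124542359, minus strand) are neighbours whose 3′ ends face each other. *C4b* (chromosome 17, 34728380 to 34743882) and *Cfb* (chromosome 17, 34856374 to 34862518) lie in the same region, and *C3* (57203970 to 57228136) lies elsewhere on that chromosome, all 3 on the minus strand. *C7* (chromosome 15, 4988762 to 5063740), *Cd55* (chromosome 1, 130439027 to 130462744) and *Serping1* (chromosome 2, 84765387 to 84775444) are on the minus strand too. The 250 bases before the RefSeq start of *C1ra* and *C1s1* are shown, since these neighbours were often high in the same cells (Pearson r 0.64 over cells). They come from the RefSeq table of build GRCm38.p6, for *C1ra* from chr6:124512371-124512620 on the plus strand and for *C1s1* from chr6:124542360-124542609 on the minus strand, both 5′ to 3′.
C1ra: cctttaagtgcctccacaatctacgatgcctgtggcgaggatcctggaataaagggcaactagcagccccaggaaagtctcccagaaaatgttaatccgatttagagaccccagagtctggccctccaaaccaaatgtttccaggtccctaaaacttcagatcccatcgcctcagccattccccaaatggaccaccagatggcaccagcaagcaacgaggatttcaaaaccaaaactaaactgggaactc
C1s1: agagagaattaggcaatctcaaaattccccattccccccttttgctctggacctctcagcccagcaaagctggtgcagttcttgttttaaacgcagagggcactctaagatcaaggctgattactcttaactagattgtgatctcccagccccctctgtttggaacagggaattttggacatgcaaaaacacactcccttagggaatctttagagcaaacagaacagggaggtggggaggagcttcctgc

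Neither window has capitals, because neither holds a match on either strand to the 3 motifs searched. These were TTCNNNGAA (the pattern that STAT factors bind), GAAANNGAA (the core of an interferon-stimulated response element) and the NF-kappaB motif. Of 32841 promoters of that length, 7.02%, 7.13% and 7.25% hold them. RefSeq entries existed for 5 of the 8 genes (*C3*, *C1s1*, *C1ra*, *C7* and *Cd55*; *C1s1* has a second start). Among them the window of *C7* alone held a match, TTCCCAGAA beginning 164 bases before the start. The pattern TTCNNNGAA reads the same on both strands, though these letters do not, so the stretch matched on both. A match is a stretch of letters and not a shown binding site.

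The counting of overlapping genes touches 3 of the members. *Gm16567* is annotated antisense to *C1s1* (chromosome 6, 124530911 to 124542310, plus strand), and it had 22.5, 15.0, 8.51 and 29.5 CPM in uninjured tdT+, uninjured tdT-, injured tdT+ and injured tdT- cells. From cell to cell it followed *C1s1* with r 0.97, so reads of both cannot be told apart where strand was not used. *Gm16083*, antisense to the first bases of *Cd55*, followed *Cd55* with r 0.89 at 0.707 to 3.83 CPM. *Gm20547* spans *Cfb* on the same strand (chromosome 17, 34856412 to 34882042) and had 0 counts on plate 211. In injured tdT- cells of plate 215 it had 1655 counts where *Cfb* had 1686, and on plate 211 *Cfb* had 694. How the authors assigned such shared reads is not given in the sources used here. Of 9135 genes with 10 CPM or more on each of plates 209, 213 and 215, 223 had 0 counts on plate 211, while 0 genes had 0 counts on plate 209, 213 or 215 alone by the same rule. Whether plate 211 was counted with the same annotation is not given in the sources used here, and its part in each comparison of *Cfb* between plate 211 and other plates was not tested. The close copies *C1rb*, *C1s2*, *C4a* and *Cd55b* had at most 1.51 CPM in any group.

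*C1ra*, the protease that starts the classical pathway, was highest in injured tdT- cells. Its level was 37.2 CPM (95% interval 35.3 to 39.1) in uninjured tdT+, 28.3 CPM (26.3 to 30.3) in uninjured tdT-, 34.4 CPM (32.4 to 36.5) in injured tdT+ and 64.5 CPM (61.4 to 67.6) in injured tdT- cells. On the plates it had 21.6 and 48.4 CPM in uninjured tdT+ cells (plates 209 and 213), 26.2 and 29.3 CPM in uninjured tdT- cells, 34.5 and 33.4 CPM in injured tdT+ cells (plates 211 and 215), and 57.7 and 70.6 CPM in injured tdT- cells. The injured tdT- plates lay above every other plate, and both injured tdT+ plates lay above both uninjured tdT- plates, while the uninjured tdT+ plates overlapped both of these groups. In such sums fewer cells of a type and less RNA per cell cannot be told apart.

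*C1s1*, the protease that C1r activates, had 73.04 CPM (70.4 to 75.8) in uninjured tdT+, 51.8 CPM (49.2 to 54.6) in uninjured tdT-, 29.1 CPM (27.2 to 31.1) in injured tdT+ and 102.2 CPM (98.3 to 106.2) in injured tdT- cells. Its plates varied widely before injury: 15.6 and 114.4 CPM in tdT+ cells on plates 209 and 213, and 78.6 and 39.2 CPM in tdT- cells. After injury they had 30.01 and 13.1 CPM in tdT+ cells and 78.8 and 123.4 CPM in tdT- cells on plates 211 and 215. The sorts did not overlap after injury and overlapped before it.

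*C4b*, cleaved by C1s, varied widely between plates. It had 13.9 CPM (12.7 to 15.1) in uninjured tdT+, 9.41 CPM (8.29 to 10.6) in uninjured tdT-, 18.1 CPM (16.7 to 19.7) in injured tdT+ and 5.81 CPM (4.91 to 6.82) in injured tdT- cells. Its plates had 23.01 and 7.30 CPM, 0.926 and 13.4 CPM, 18.98 and 3.58 CPM, and 5.82 and 5.80 CPM in the same order, so every pair of groups overlapped, except that both uninjured tdT+ plates lay above both injured tdT- plates. A single cell held 29.2% to 49.01% of its counts in each group.

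*C3*, the central component on which all pathways meet, was a gene of few cells. It had 12 counts in uninjured tdT+ cells (0.312 CPM, 0.161 to 0.546), 227 counts in uninjured tdT- cells (8.44 CPM, 7.38 to 9.62), 14 counts in injured tdT+ cells (0.450 CPM, 0.246 to 0.754) and 677 counts in injured tdT- cells (26.4 CPM, 24.4 to 28.5). In uninjured tdT- cells 1 cell of plate 209 held 225 of the 227 counts, and without it the level was 0.0749 CPM. In injured tdT- cells 12 cells (11.7%) had a count, 1 cell held 42.7% of them, and the plates had 29.9 and 23.2 CPM. Injured tdT+ cells had 0.475 CPM on plate 211 and 0 counts on plate 215, where 3 counts would be 1.79 CPM.

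*Cfb*, the serine protease of the alternative pathway, had 3.93 CPM (3.33 to 4.61) in uninjured tdT+, 12.3 CPM (11.1 to 13.8) in uninjured tdT-, 19.5 CPM (17.98 to 21.1) in injured tdT+ and 92.8 CPM (89.1 to 96.6) in injured tdT- cells. Its plates had 7.34 and 1.48 CPM, 37.5 and 0.438 CPM, 20.3 and 5.37 CPM, and 56.9 and 125.4 CPM in the same order. The injured tdT- plates lay above all others. The richest cell carried 88.3% of the counts in uninjured tdT- and 87.6% in injured tdT+ cells; leaving it out gave 1.47 and 2.44 CPM. In injured tdT- cells the cell with most counts held 22.1%, and 74.01 CPM remained without it.

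*C7* was low and found in few cells. It had 2.50, 1.12, 2.60 and 3.08 CPM in uninjured tdT+, uninjured tdT-, injured tdT+ and injured tdT- cells, from 30 to 96 counts in 3 to 13 cells. Its plates ran from 0.116 to 19.1 CPM, and the highest rests on 1 cell with 32 counts among the shallow injured tdT+ cells of plate 215. No order of the groups can be read from these counts.

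*Serping1*, the inhibitor of C1r and C1s, had a count in more than 50% of the cells of every group. Its level was 614 CPM (606 to 622) in uninjured tdT+, 311 CPM (305 to 318) in uninjured tdT-, 483 CPM (475 to 491) in injured tdT+ and 752 CPM (741 to 763) in injured tdT- cells. The plates had 559 and 654 CPM, 424 and 258 CPM, 489 and 373 CPM, and 764 and 741 CPM in the same order. Injured tdT- cells were highest on both plates, uninjured tdT+ cells came next, and uninjured tdT- cells overlapped with injured tdT+ cells. Single cells spanned 0 to 4669, 0 to 6528, 0 to 5375 and 0 to 9149 CPM, with medians of 10.8, 2.44, 67.6 and 281 CPM.

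*Cd55*, which protects the cell surface, was the only member with its lowest level in injured tdT+ cells on both plates without overlap. It had 54.6 CPM (52.3 to 56.99) in uninjured tdT+, 73.4 CPM (70.2 to 76.7) in uninjured tdT-, 9.83 CPM (8.76 to 10.99) in injured tdT+ and 46.5 CPM (43.9 to 49.2) in injured tdT- cells. The plates had 60.7 and 50.2 CPM, 90.8 and 65.1 CPM, 9.98 and 7.15 CPM, and 46.9 and 46.1 CPM. In uninjured tdT- cells 1 cell of plate 213 held 1150 of 1973 counts, and without it the group had 31.4 CPM, below the uninjured tdT+ cells.

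**Figure D1:**
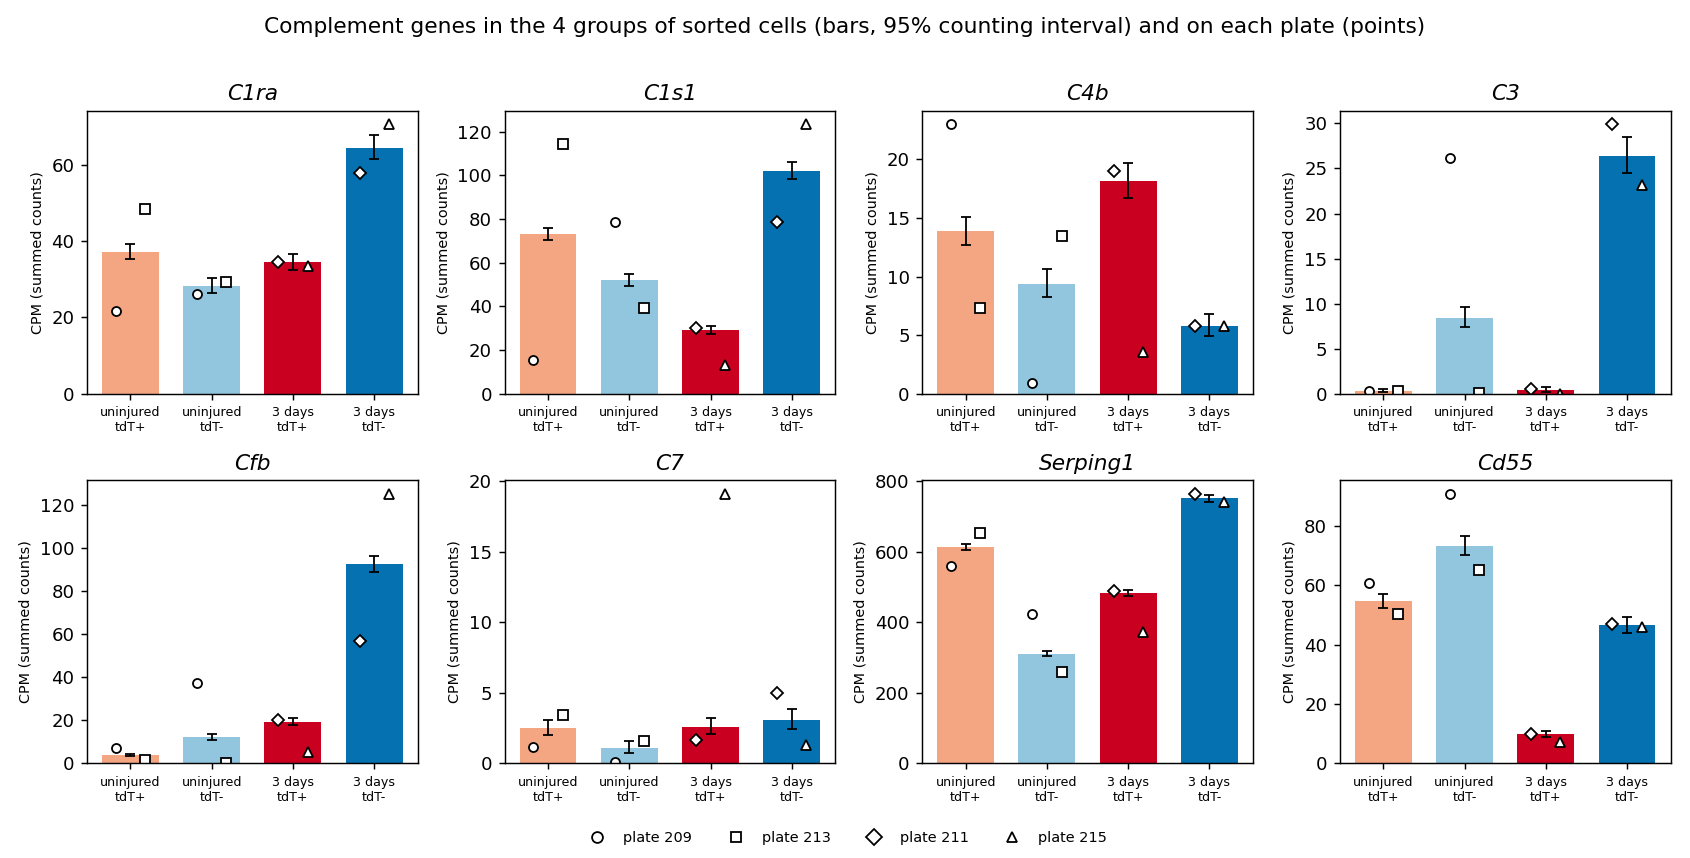
Summed counts of each complement gene in CPM (vertical axis from 0, own scale for each gene) for the 4 groups of sorted cells (bars, with exact 95% Poisson intervals as error bars) and for each plate (points; tdT stands for tdTomato). Injured tdT- cells carry the highest bars of *C1ra*, *C1s1*, *C3*, *Cfb* and *Serping1*, while *Cd55* is lowest in injured tdT+ cells at 9.83 CPM.

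The sorts were compared in uninjured cord to ask whether complement genes separate cells of the GLAST lineage from other perivascular cells. A gene was called where log2(CPM + 1) of the groups differed by 1 or more, which is 2-fold away from low values, with the same direction on both plates (for injury, in all 4 pairings of injured with uninjured plates), among genes with 10 CPM or more in the higher group. Of the 8 members 6 were tested, and 0 were called higher and 0 lower in tdT+ cells, where 4.29% and 3.6% of all 10844 tested genes were called. *Serping1* came nearest, with a log2 difference of 0.98 (0.40 and 1.34 on the plates). *C1s1* had 0.49 in the sums but -2.26 and 1.52 on the plates, and *Cfb* had -1.44 with -2.21 and 0.78, so the plates of both disagreed in direction. The median of the tested members was 0.43, against 0.01 over all tested genes.

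The same sorts were compared 3 days after injury. Of 7 tested members, 0 were called higher and 4 lower in tdT+ than in tdT- cells, where 4.47% and 18.6% of 10243 tested genes were called. *C3* differed by -4.24 on the log2(CPM + 1) scale (-4.39 and -4.60 on plates 211 and 215), *Cfb* by -2.19 (-1.44 and -4.31), *Cd55* by -2.13 (-2.12 and -2.53) and *C1s1* by -1.78 (-1.36 and -3.14). The remaining tested members had -0.89 (*C1ra*), -0.64 (*Serping1*) and 1.49 (*C4b*), and *C4b* had opposite signs on the plates (1.55 and -0.57). The median of the tested members was -1.78, and that of all tested genes -0.32. With TMM and DESeq2 scaling the latter became 0.05 and 0.19, and the share of called genes that were higher moved from 19.4% to 43.9% and 56.04%; the same 4 members were called lower under both. Endothelial markers were higher in tdT- cells too. In cells with fewer than 2 of the 5 endothelial markers (65 tdT+ and 22 tdT- cells), all 7 tested members were called lower, *C4b* included, where 19.5% of all 10210 genes tested in these cells were.

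Injury was compared within tdT+ cells. Of 6 tested members 0 were called higher and 1 lower after injury, where 11.4% and 34.1% of 10907 tested genes were called. The 1 was *Cd55*, which fell by 2.36 on the log2 scale and by 2.22 to 2.92 in the 4 plate pairs; it fell by 1.72 and 1.59 with TMM and DESeq2 scaling. *Cfb* had 2.06, but 1 of its 4 plate pairs had the opposite sign, and without the 1 cell with most counts in each group the value was 0.25. *C1s1* had -1.30 with plate pairs from -3.03 to 0.90. The median of the tested members was -0.23, and that of all tested genes -0.57, which became 0.08 and 0.22 with TMM and DESeq2 scaling. The share of called genes that were higher moved from 24.97% to 56.4% and 63.1% with it, and *Cfb* was then called higher.

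Injury was then compared within tdT- cells. Of 6 tested members 3 were called higher and 0 lower after injury, where 9.92% and 16.3% of 10982 tested genes were called. *Cfb* rose by 2.81 (0.59 to 6.46 in the plate pairs), *Serping1* by 1.27 (0.80 to 1.56) and *C1ra* by 1.16 (0.96 to 1.40). *C1s1*, just short of the threshold, had 0.97 with 0.0026 to 1.63 in the pairs. *C3* had 1.54, and 1 of its 4 pairs was below 0 (-0.17 to 4.87). The median of the tested members was 1.22, and that of all tested genes -0.19, which became 0.09 with TMM and 0.05 with DESeq2 scaling; the share of called genes that were higher then moved from 37.9% to 59.1% and 55.9%, and *C3* and *C1s1* were called higher as well. Without the cells that had 3 or more microglia and macrophage markers (66 uninjured and 83 injured tdT- cells left), *Serping1* alone was called higher, with 1.10, and *C1ra* had 0.66; 10.6% of all genes tested were called higher there. In cells with fewer than 2 endothelial markers (19 and 22 cells) *Cfb* alone was called higher, where 17.96% of all genes tested were, and *Serping1* had 0.55.

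The injury effect of tdT+ minus that of tdT- cells was below 0 in all 4 plate pairs for *C3* (-1.39 in the sums), *C1ra* (-1.27), *Cd55* (-1.71) and *Serping1* (-1.62). It had mixed signs over the pairs for *C4b* (0.98), *C1s1* (-2.26), *C7* (-0.91) and *Cfb* (-0.76). For *C3* the pair nearest to 0 had -0.02.

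**Figure D2:**
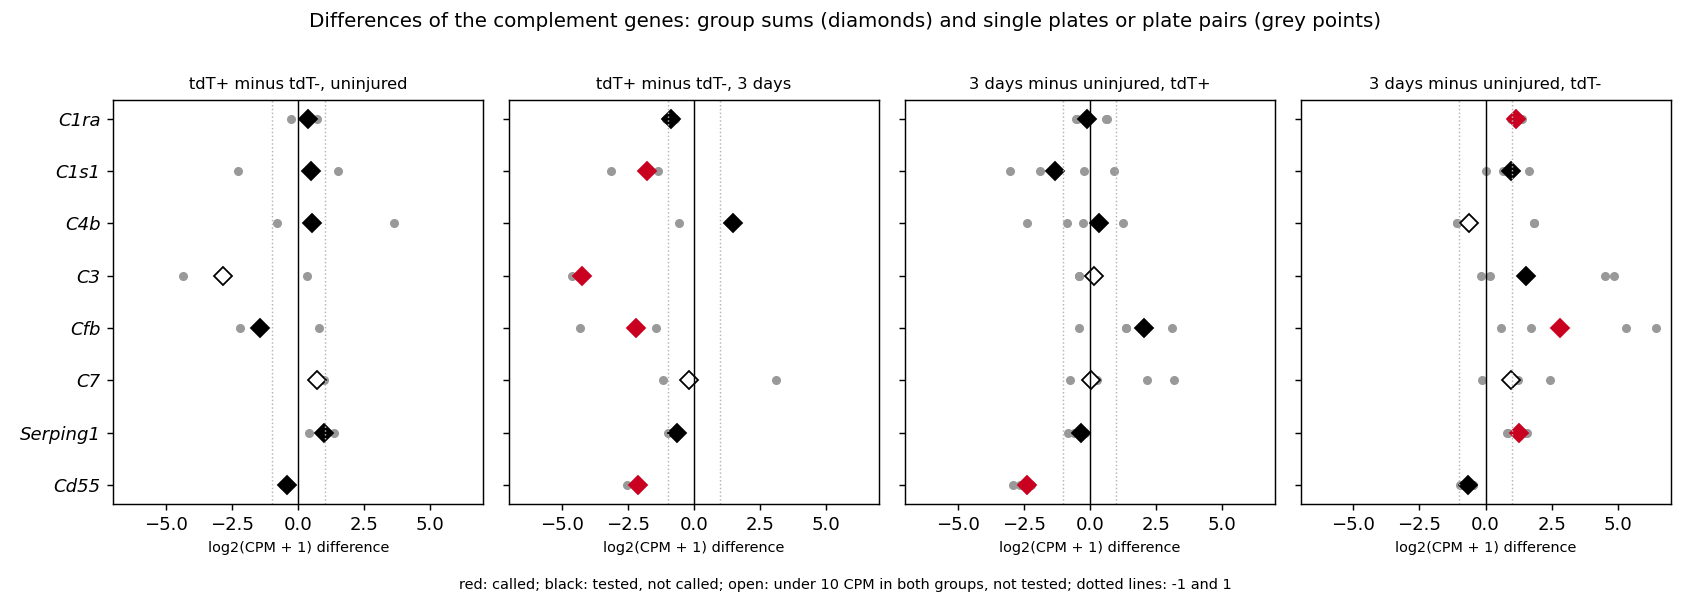
Differences of log2(CPM + 1) for each complement gene in the 4 comparisons (horizontal axis, in log2 units): diamonds give the group sums (red where called, black where tested and not called, open where under 10 CPM in both groups) and grey points the single plates or plate pairs. The called members lie left of 0 between the sorts at 3 days (*C3*, *Cfb*, *Cd55* and *C1s1*) and right of 0 for injury of tdT- cells (*Cfb*, *Serping1* and *C1ra*).

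The share of cells with a count was compared after thinning every cell to 20000 counts, which left out 10, 14, 22 and 1 shallower cells in the order of the groups above. *Serping1* then had a count in 46.5% of uninjured tdT+ cells (exact binomial 95% interval 37.6 to 55.5), 43.5% of uninjured tdT- cells (33.2 to 54.2), 69% of injured tdT+ cells (58.97 to 77.9) and 79.4% of injured tdT- cells (70.3 to 86.8); unthinned shares were 58.4%, 51.9%, 80.3% and 89.3%. After thinning, the injured groups lay above the uninjured ones beyond their counting intervals, which do not cover differences between plates. Injured and uninjured cells share no plate, and 21 of the 22 injured tdT+ cells left out came from plate 215. Unthinned, a count of *Serping1* was found in 89.8% of injured tdT+ cells on plate 211 and 55.9% of the shallow ones on plate 215. On plates 209 and 213, 60% and 56.9% of uninjured tdT+ cells had one. In injured tdT+ cells the higher share and median cell went with a lower summed level in CPM than in uninjured tdT+ cells. That order of the sums was reversed with TMM and DESeq2 scaling, as given below. *C1ra* had a count in 20.5%, 20.7%, 25% and 38.2% of thinned cells, and *Cfb* in 5.51%, 4.35%, 4% and 13.7%. The intervals of *Cfb* overlapped, 7.71% to 21.96% in injured tdT- cells against 1.10% to 9.93% in injured tdT+ cells. *C3* had a count in 4 injured tdT- cells (3.92%) and in 1 or 2 cells of each other group. A thinned cell held a count of 1.17, 1.08, 1.45 and 1.92 of the 8 members on average, and at most 6.

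Detection of members in the same cells was counted without thinning. In injured tdT- cells 55 of the 56 cells with *C1ra* also had a count of *Serping1*. The same held for 27 of the 29 cells with *Cfb*. *Serping1* had a count in 89.3% of all injured tdT- cells, so most cells with any other member would hold it too. *C1ra* and *C1s1* were detected together in 35.9% of injured tdT- cells, where 54.4% and 42.7% had a count of each. *C3* and *Cfb* were detected together in 8 injured tdT- cells, in 1 injured tdT+ cell and in 0 uninjured cells of either sort.

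Cells were clustered with all 54 complement genes held out, so that a cluster's level of a member is not what made the cluster. Cluster 4 (73 cells) had all 8 perivascular fibroblast markers raised (*Col1a1*, *Col3a1*, *Lum*, *Dcn*, *Pdgfra*, *Pi16*, *Fbln1* and *Mfap5*), with 4 of 7 markers of stromal fibroblasts, and is called perivascular fibroblast-like. Cluster 6 (18 cells) had 5 of 6 vSMC markers and cluster 5 (48 cells, 47 of them injured tdT-) had 7 of 9 pericyte markers beside 4 of 7 stromal ones; they are called vSMC-like and pericyte-like. Clusters 2 and 3 (25% and 16.2% of the 468 cells, mostly uninjured) had 7 and 8 of 9 pericyte markers but also 5 and 4 of 5 endothelial markers and stay unnamed. Cluster 1 (29.1% of cells; 99 of its cells were injured tdT+) stays unnamed as well, with all 6 cycling markers, 5 of 7 stromal and 5 of 8 perivascular fibroblast markers; its 20 uninjured cells were very shallow, with medians of 3812 and 1923 counts by sort. Names rest on markers here and may differ from the study's own.

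Summed over groups, 7 of the 8 members had their highest level in the perivascular fibroblast-like cells. *Serping1* had 2191 CPM in cluster 4, against 181, 60.1, 174, 407 and 874 CPM in clusters 1, 2, 3, 5 and 6. Thinned to 20000 counts, 98.6% of perivascular fibroblast-like cells and 19.8% of cluster 2 cells had a count of it. *Cd55* had 236 CPM (230 to 243) there, against 5.72, 5.23 and 9.83 CPM in clusters 1 to 3, and against 2 counts in pericyte-like and 1 count in vSMC-like cells. After thinning, *Cd55* was found in 45 of 71 perivascular fibroblast-like cells and in 0 of 47 pericyte-like cells, which allows a share of up to 6.38% by 3 counts and 7.55% by the exact binomial 95% limit. In clusters 2 and 3, which also had most pericyte markers raised, it was found in 3.60% and 6.76% of thinned cells. *C1ra* had 148.3 CPM (143.1 to 153.5) in cluster 4, 117.4 CPM (107.7 to 127.7) in vSMC-like cells (47.9% of it in 1 cell), 35.2 CPM in pericyte-like cells and 4.17 to 14.2 CPM in clusters 1 to 3. *Cfb* had 150.9 CPM (145.7 to 156.2) and *C3* 42.5 CPM (39.8 to 45.4) in cluster 4, while no other cluster passed 3.72 CPM for *Cfb* or 0.423 CPM for *C3*. *C4b* (34.6 CPM) and *C7* (9.85 CPM) were highest in cluster 4 too, with *C4b* at 13.1 and 14.3 CPM in clusters 1 and 6.

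*C1s1* differed from the other members in that vSMC-like cells had the most, 381 CPM (363 to 399) against 210 CPM (204 to 216) in cluster 4. A single vSMC-like cell held 42.96% of those counts, but 16 of 18 vSMC-like cells had a count, and so did 57 of 73 perivascular fibroblast-like cells. *Cfb* and *C3* had 0 counts in vSMC-like cells, where 3 counts would be 0.651 CPM. With a resolution of 0.3, cluster 4 merged with cluster 1, and without regression 66 of its 73 cells stayed in 1 cluster, in which *Serping1* had 2339 CPM and *Cfb* 166 CPM.

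**Figure D3:**
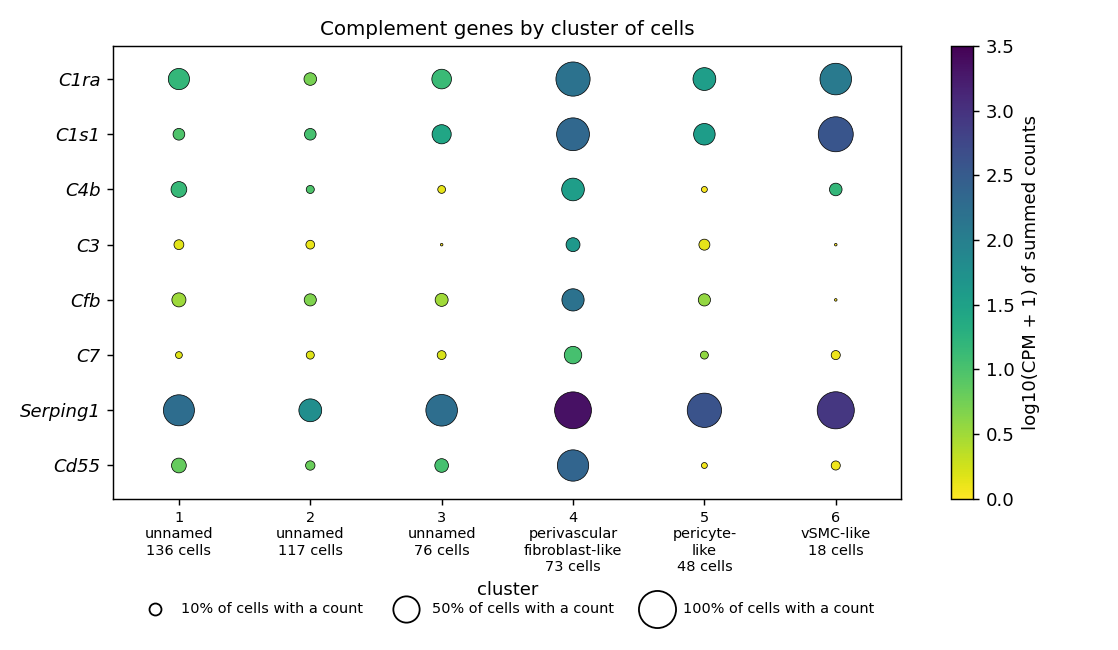
Each point is 1 complement gene in 1 cluster; colour gives log10(CPM + 1) of the summed counts and area the percentage of cells with a count, unthinned. The column of perivascular fibroblast-like cells is the darkest for every gene but *C1s1*, which is darkest in vSMC-like cells (381 CPM).

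The groups drew on these cells to unequal degrees. There were 26 perivascular fibroblast-like cells among uninjured tdT+ (18.98%), 9 among uninjured tdT- (8.49%), 19 among injured tdT+ (15.6%) and 19 among injured tdT- cells (18.4%). They held 22.98%, 9.51%, 15.4% and 19.6% of the counts of these groups, but 86.2%, 57.3%, 68.2% and 57.6% of the *Serping1* counts. In injured tdT- cells they held 98.97% of the *C3* counts, 98.1% of the *Cfb* counts and 94.1% of the *Cd55* counts. The shares were lower elsewhere: in uninjured tdT- cells they held 1.98% of the *C4b*, 22.1% of the *C1ra* and 32.9% of the *C1s1* counts, in injured tdT+ cells 32.7% of the *C4b* counts, and in uninjured tdT+ cells 15.9% of the *Cfb* counts, which is below their share of all counts. *C4b* in uninjured tdT- cells, at 1.95 CPM in these cells and 10.2 CPM in the others, was thus not concentrated in them. For such genes the level of a whole group therefore joins the number of perivascular fibroblast-like cells with the level in each, which is given next.

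Within perivascular fibroblast-like cells *Serping1* was nearly level over the groups, at 2303, 1874, 2134 and 2209 CPM, with plates from 1526 to 2790 CPM that overlapped between all groups. In tdT- fibroblast-like cells the injured plates (2571 and 1909 CPM) overlapped the uninjured ones (2377 and 1526 CPM). Outside the cluster *Serping1* had 109.9 CPM (106.2 to 113.8) in uninjured tdT+, 146.98 CPM (142.2 to 151.9) in uninjured tdT-, 182 CPM (176 to 187) in injured tdT+ and 397 CPM (388 to 405) in injured tdT- cells. *C1ra* had 142.96, 65.7, 143.8 and 203.9 CPM in the perivascular fibroblast-like cells and 5.58, 24.3, 14.4 and 30.5 CPM in the other cells of the same groups.

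*Cfb* set injured tdT- fibroblast-like cells apart. It had a count in 16 of 19 of them, against 4 of 26 uninjured tdT+, 2 of 9 uninjured tdT- and 4 of 19 injured tdT+ fibroblast-like cells. The sums were 464 CPM (446 to 484), 2.72 CPM (1.74 to 4.05), 115.7 CPM (102.9 to 129.7) and 113.6 CPM (104.3 to 123.6) in that order. Without the 1 cell with most counts they were 407, 0.823, 1.39 and 3.18 CPM. The median cell had 102.3 CPM in injured tdT- and 0 CPM in each other group, and the highest cells had 1464, 53.1, 726 and 1310 CPM. On plates 211 and 215 injured tdT- fibroblast-like cells had 299 and 602 CPM, and injured tdT+ ones 120.2 and 7.21 CPM. The last value is 2 counts among 4 cells, where 3 counts would be 10.8 CPM. Groups overlapped through the 1 high cell each in uninjured tdT- and injured tdT+ cells.

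*C3* was found in 6 of 19 injured tdT- fibroblast-like cells, 3 on each plate, with 157.8 and 112.9 CPM on plates 211 and 215. It was found in 1 of 26 uninjured tdT+, 1 of 9 uninjured tdT- and 2 of 19 injured tdT+ fibroblast-like cells, with 4, 225 and 3 counts in all. *C1s1* had 347 CPM in injured tdT- fibroblast-like cells, where 1 cell held 43.04% of the counts, and 175, 179 and 148.2 CPM in uninjured tdT+, uninjured tdT- and injured tdT+ ones. The median cell had 78.9, 63.6, 128.8 and 86.2 CPM in that order, so the sums and the median cells ranked the groups differently.

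*Cd55* had a count in 18 of 26 uninjured tdT+, 8 of 9 uninjured tdT-, 8 of 19 injured tdT+ and 18 of 19 injured tdT- fibroblast-like cells. The sums were 197 CPM (188 to 207), 763 CPM (730 to 798), 40.4 CPM (34.9 to 46.5) and 223 CPM (210 to 237), and the median cells 120.6, 299.7, 0 and 135.8 CPM. The plates had 282 and 156.5 CPM, 735 and 783 CPM, 41.5 and 21.6 CPM, and 244 and 206 CPM. Injured tdT+ fibroblast-like cells were thus lowest and uninjured tdT- ones highest, each on both of their plates. The 21.6 CPM of injured tdT+ ones on plate 215 is 6 counts in 1 of 4 cells (7.93 to 47.1 CPM), where 3 counts would be 10.8 CPM. The uninjured tdT- ones were 9 cells in all, with 58.9% of the counts in 1 of them. *C4b* had a count in 11 of 19 injured tdT+, 8 of 19 injured tdT-, 7 of 26 uninjured tdT+ and 1 of 9 uninjured tdT- fibroblast-like cells.

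**Figure D4:**
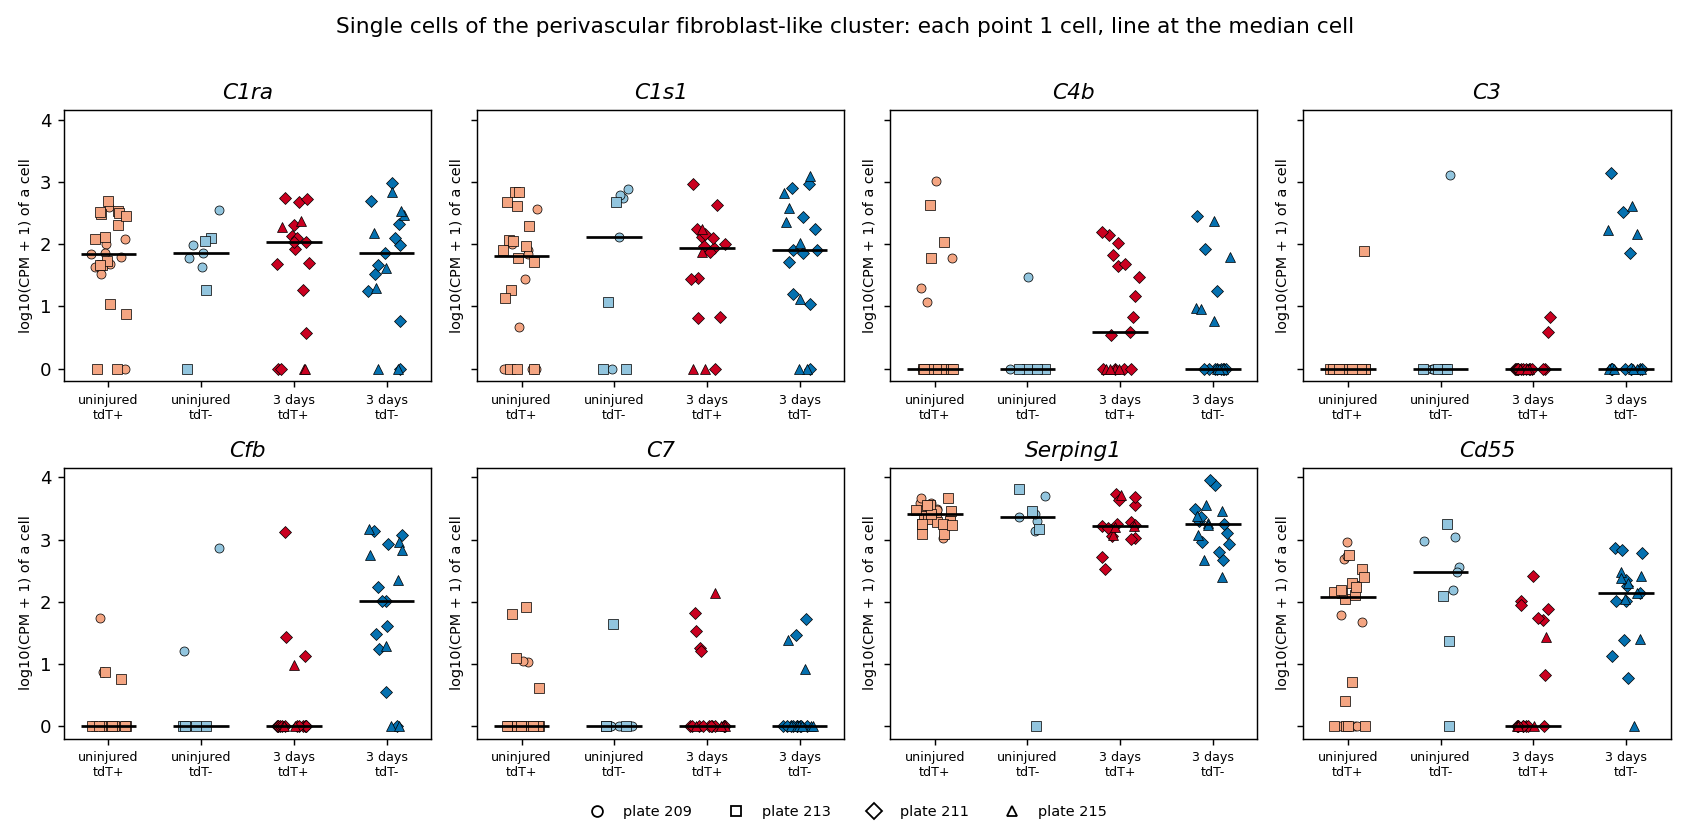
Each point is 1 cell of the perivascular fibroblast-like cluster, its vertical position log10(CPM + 1) of the gene in that cell, its symbol the plate and its colour the group; lines mark the median cell. The *Cfb* line leaves 0 in injured tdT- cells (median 102.3 CPM) only, the *Cd55* line drops to 0 in injured tdT+ cells only, and the *Serping1* lines lie close together.

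A wider list of 46 other complement genes was read in the same way. In uninjured cord 2 of its 9 tested genes were called higher in tdT+ cells (*C2*, 32.9 against 3.05 CPM, and *C1qb*, 14.2 against 6.25 CPM) and 1 lower (*Clu*, 56.4 against 137.4 CPM), where 4.29% and 3.6% of all tested genes were called. *C2* had a count in 8.03% of uninjured tdT+ cells, with 28.7% of its counts in 1 cell. On plates 209 and 213 it had 370 and 893 counts in this group, where *Gm20547* had 395 and 705. Whether they share reads was not tested. At 3 days 1 of 8 was called higher in tdT+ cells, the lectin pathway protease *Masp1* (22.7 against 0.858 CPM), and 4 lower, where 4.47% and 18.6% of all tested genes were called. These were *Vtn* (379 against 4586 CPM), *Clu* (7.58 against 183 CPM), *Cd93* (23.2 against 109.1 CPM) and *Cd59a* (10.1 against 26.2 CPM). *Vtn* and *Clu*, vitronectin and clusterin, restrain the membrane attack complex, and *Cd59a* blocks it at the cell surface. *Vtn* is also 1 of the 9 pericyte markers used here, and *Cd93* is a receptor of endothelial cells.

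Injury within tdT+ cells called 1 of 10 genes of the wider list higher (*Masp1*) and 6 lower (*C1qb*, *C2*, *Cd59a*, *Clu*, *Vtn* and *Cd93*), with a median of -2.52, where 11.4% of all tested genes were called higher and 34.1% lower. The plate pairs of *Masp1* ran from 0.48 to 4.45. In injured tdT+ cells *C2* had 182 counts on plate 211 and 0 on plate 215. *Cd59a* had 100.6 CPM before and 10.1 CPM after injury. Injury within tdT- cells called 2 of 7 lower, against 16.3% of all tested genes, *Cd59a* (123.3 CPM before and 26.2 CPM after injury) and *Cd93* (221 and 109.1 CPM). The C1q subunits *C1qa* and *C1qb*, which macrophages and microglia make, reached 10.8 and 14.2 CPM in uninjured tdT+ cells, the group with the highest sum of microglia and macrophage markers, a list that holds both. In that group 1 cell held 29.2% of the *C1qa* and 1 cell 32.5% of the *C1qb* counts. Shares of cells ranked otherwise, with a count of *C1qa* in 10.9% of uninjured tdT+ and 42.5% of uninjured tdT- cells. On plate 211 *C1qa* had 0 counts and *C1qb* 1. *Colec12* (269 to 499 CPM) and *Cr1l* (106.9 to 234 CPM) were not called in any of the 4 comparisons.

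The genes most like each member from cell to cell were sought over 421 cells with 20000 counts or more, by Pearson's r of ln(1 + counts per 10000) among genes with a count in 10% or more of these cells. All cells come from the same 4 plates and differ in depth, so r is a description. *Serping1* was most like *Gsn* (0.80) and *Islr* (0.76). *C1ra* was most like *Serping1* (0.67), *C1s1* (0.64) and *Gsn* (0.62), and *C1s1*, beside its antisense gene, most like *C1ra* and *Serping1* (0.59). *C7* was most like *C1ra* (0.41), *Ptpn6* (0.36) and *C1s1* (0.34). *Cd55* was most like *Igfbp6* (0.70) and *Htra3* (0.65) beside its antisense gene, *Cfb* most like *Wnt9a* (0.65), *Itgbl1* (0.64) and *Slc47a1* (0.62), and *C3* most like *Miat* (0.67), *Col14a1* (0.61) and *Gpx3* (0.60). *C4b* stood apart: its best matches were *Moxd1* (0.40), *Bmp7* (0.34) and *Robo1* (0.33), and its r with the other 7 members ran from -0.01 (*Cfb*) to 0.26 (*Serping1*).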

How the data were processed

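The authors deposited 1 table of raw counts per gene and cell from Smart-seq3 libraries. The submitters' processing notes name mm10; the aligner, the annotation release, and whether reads or molecules were counted are not given in the sources used here. Of 1968 columns 503 matched a labelled cell and 1465 were not used. Spike-in rows (92, holding 0.0314% of counts) were left out of totals. Cells needed 200 genes and under 20% mitochondrial counts, which left 502. On the scale ln(1 + counts per 10000), cells with *Gfap* or *Ptprc* above 1 were removed (0 cells), then cells with *Pecam1* above 1 and above *Pdgfrb* (34 cells). An upper limit of 1200 genes, which the study states, served as an alternative only. No doublet caller was run.

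Counts were summed by group and by plate and scaled to CPM, with a pseudocount of 1 CPM, the 2-fold rule and the 10 CPM minimum given above. A tested gene also needed counts on plate 211 and on another plate. With 1 sample a group no test was made. Intervals and limits for counts of 0 (3 counts) cover counting error only. Cells were clustered in Seurat 5.3.0 (R 4.3.3) on 2000 variable genes, 20 principal components and a resolution of 0.5; a marker was raised where its log2 level exceeded the other cells' by 0.5 with a count in 50% of cells. Python 3.11.15, scipy 1.17.1 and matplotlib 3.10.9 did the rest. The calling rule was checked on simulated sums with Poisson error only. That check does not cover the spread between cells and plates seen here, which the simulation left out. Alternatives were TMM (edgeR 4.0.16) and DESeq2 1.42.0 scaling of the sums, averages of single-cell CPM values, a pseudocount of 10, other cell filters, each plate or the cell with the most counts left out, other thinning depths and other clusterings. The members, the gene lists and the markers were chosen with earlier results of these data known. All 8 members are named, and other complement genes where they had 10 CPM or more in a group; 1 gene of the wider list is not reported here.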

Additional observations from a re-analysis of the deposited data

Results flagged for a closer look

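The summed level of *Serping1* moved in opposite directions in the sorts between uninjured and injured cells, which lie on different plates. In all 4 pairings of injured with uninjured plates it was higher after injury in tdT- cells (0.80 to 1.56 on the log2 scale) and lower in tdT+ cells (-0.81 to -0.19). The difference of the effects was -1.62 in the sums, and it was not tested. The value for tdT+ cells, -0.35, became 0.33 with TMM and 0.47 with DESeq2 scaling, while the difference of the effects was -1.23 and -1.04. In tdT+ cells perivascular fibroblast-like cells had 2303 CPM before and 2134 CPM after injury, and the other cells 109.9 and 182 CPM. In tdT- cells these values were 1874 and 2209 CPM, and 146.98 and 397 CPM. Perivascular fibroblast-like cells held 22.98% and 15.4% of all counts in tdT+ cells, and 9.51% and 19.6% in tdT- cells. The part of these shares was not tested.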

How the results depend on the processing

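No difference called in the main run turned its direction under any alternative run. Calls made under alternatives only did differ in direction. Between the uninjured sorts *C1s1* was called higher without plate 209 and lower without plate 213. *C4b* at 3 days and *Serping1* after injury of tdT+ cells were also called higher in 1 alternative and lower in another. Under TMM and under DESeq2 scaling, injury of tdT+ cells called 1 member higher (*Cfb*) and injury of tdT- cells 5 (*C3*, *C1s1*, *C1ra*, *Cfb* and *Serping1*). Of all tested genes 22.6% and 25.99% were called higher for tdT+ cells, and 14.9% and 13.9% for tdT- cells. Without cells that had 2 or more endothelial markers, 7 members were lower between the sorts at 3 days, 3 were lower after injury of tdT+ cells (*C1s1*, *Cd55* and *Serping1*) and 1 was higher after injury of tdT- cells (*Cfb*). Of all tested genes 19.5% were lower between these sorts. After injury 14.3% were lower in tdT+ cells and 17.96% higher in tdT- cells. Only 9 uninjured and 65 injured tdT+ cells were left. Without cells that had 3 or more microglia and macrophage markers, 1 was higher after injury of tdT- cells (*Serping1*), where 10.6% of all tested genes were. These filters were chosen after seeing the data. Without the cell with the most counts, 1 was higher in uninjured tdT+ cells (*Serping1*), where 4.28% of all tested genes were. With the limit of 1200 genes, injury of tdT+ cells gave 1 higher (*Serping1*) and 0 lower, with 10 uninjured and 10 injured cells left. Of all 5939 genes tested there, 57.4% were called higher and 2.36% lower. No injured tdT- cell was left, so the sorts at 3 days and injury of tdT- cells gave no value. Without plate 209, 2 members were higher in uninjured tdT+ cells (*C1s1* and *Serping1*), injury of tdT+ cells gave 1 higher (*Cfb*) and 2 lower (*C1s1* and *Cd55*), and injury of tdT- cells 5 higher and 1 lower (*C4b*). Of all tested genes 9.03% were higher in uninjured tdT+ cells. After injury 11.8% were higher and 36.6% lower in tdT+ cells, and 12.05% and 19.3% in tdT- cells. Without plate 213, uninjured tdT+ cells gave 1 higher (*C4b*) and 3 lower (*C3*, *C1s1* and *Cfb*), where 9.16% and 8.32% of all tested genes were. Without plate 211, 1 was higher between the sorts at 3 days (*C7*), and injury of tdT+ cells gave 1 higher (*C7*) and 3 lower (*C4b*, *C1s1* and *Cd55*). Of all tested genes 8.53% were higher between these sorts, and injury of tdT+ cells gave 15.9% higher and 32.96% lower. Without plate 215, 1 was higher between the sorts at 3 days (*C4b*) and 1 after injury of tdT+ cells (*Cfb*), where 6.35% and 11.8% of all tested genes were. The cause of these changes was not tested.

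Over all genes, 465 were higher and 390 lower between the uninjured sorts, 458 and 1908 between the sorts at 3 days, 1238 and 3719 after injury of tdT+ cells and 1089 and 1785 after injury of tdT- cells. TMM scaling gave 974 and 1243, 2471 and 1908, and 1617 and 1117 for the last 3 of these comparisons, and DESeq2 scaling 1327 and 1041, 2848 and 1663, and 1499 and 1181. Without cells with endothelial markers the 4 comparisons gave 1233 and 2655, 1018 and 1988, 2918 and 1457, and 1960 and 1455. A pseudocount of 10 gave 184 and 164 between the uninjured sorts, 296 and 1158 at 3 days and 741 and 1082 after injury of tdT- cells. Between the uninjured sorts the counts were 994 and 871 without plate 209, 987 and 897 without plate 213, 1083 and 819 with no minimum, 803 and 414 without cells with microglia markers and 184 and 275 with the limit of 1200 genes. That limit gave 3411 and 140 after injury of tdT+ cells, and leaving out plate 211 gave 895 and 2398 between the sorts at 3 days. The sorts were compared within each plate by the calling rule. No paired analysis was possible beyond this because no label pairs cells or animals and no result comes from a test.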
